A study of Mus musculus with 384 samples.

Results

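The genes described here are those whose transcripts stood lower late after lipopolysaccharide (LPS) in wild-type mouse macrophages. In each of the 2 wild-type plates, CPM (counts of a gene per 1e+06 counts of the pool) were taken over the 12 time 0 wells and over the 6 wells given LPS or MDP/LPS for 2.5, 3 or 4 h. A gene was a member when its time 0 level was at least 40 CPM and its late level was at most 0.45 of that level in both plates. Symbols starting with Zfp, Slc or Klf were left out. This gave 222 genes of 23481 in the table, of 16100 with a count in any well and of 3374 with at least 40 CPM at time 0 in both wild-type plates. Another 15 genes met the thresholds and were dropped for their symbol, among them Slc40a1, Slc37a2 and Zfp36l2. Of the members, 219 are protein-coding and 2 are long non-coding RNAs in the RefSeq annotation. The members were thus chosen by the wild-type time 0 and late LPS and MDP/LPS values, which are given as a description, with no test.

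The cells were bone-marrow-derived macrophages from male C57BL/6 mice 13 weeks old, either wild type (WT) or with Myd88 knocked out (KO). All of them, controls included, had received a pool of reporter viruses on day 4 and were replated into wells on day 9. Each well was given 1 of 12 ligands (Pam3Cys, R848, CpG, LPS, MDP/LPS, Zymosan, Poly(I:C), MDP, FLA, SeV, TDB or HT-DNA) and was lysed at 0, 0.5, 1, 1.5, 2, 2.5, 3 or 4 h. Each genotype filled 2 plates of 96 wells, named replicates 1 and 2, in which every pair of ligand and time had a single well. Nothing in the labels says that the replicates came from separate animals or cultures, so the p-values measure only the spread between these plates, which may be technical. The transcripts were read as 3′ end counts.

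LPS is sensed by Toll-like receptor 4, which signals through the adaptor Myd88 at the cell surface and through the adaptor Trif from endosomes. Pam3Cys, R848 and CpG are sensed by Toll-like receptors that rely on Myd88, while Poly(I:C), a synthetic double-stranded RNA, is sensed by receptors that do not. Macrophages answer such ligands by inducing inflammatory genes, and at the same time they lower many transcripts of the resting state, including receptors, regulators of small GTPases and transcription factors of macrophage identity. A transcript can fall only as fast as its RNA decays, so repressed genes are usually followed over hours. In bulk wells, fewer cells of a type and less RNA per cell cannot be told apart.

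A single well held 71720 to 767167 counts, and the median well held 342561. Time 0 pools held 3167670 to 4901235 counts and late sums of 1 ligand 314684 to 1876446. Of 9 macrophage markers in the table, 8 were at 40 CPM or more at time 0, and their summed level was 3639 to 4039 CPM over the 4 plates. The summed level of 10 neutrophil markers was 178 to 265 CPM, that of T cell markers 33.8 to 35.3 CPM, and at time 0 each of 6 other marker lists summed to at most 15.2 CPM. Nearly all of the T cell sum was Cd8b1, at 31.9 to 34.3 CPM, and each other T cell marker was at most 1.58 CPM. Late after LPS the macrophage sum was 3202 and 3200 CPM in WT and 3633 and 3579 CPM in KO, and the neutrophil sum was 166 and 141 CPM in WT and 165 and 183 CPM in KO. T cell markers summed to 18.3 to 25.0 CPM, and dendritic cell markers passed from 14.5 and 9.15 to 32.1 and 23.6 CPM in WT and from 13.0 and 15.2 to 4.93 and 14.2 CPM in KO. The part of these shifts in the late levels of the members was not tested. Myd88 itself stood at 30.4 and 35.0 CPM in the WT time 0 pools and at 14.5 and 17.0 CPM in the KO pools. These are 149, 111, 68 and 67 counts, and the labels do not say which part of the gene was removed, so 3′ counts check the genotype only weakly.

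Some wells stood apart in these genes before any ligand could act. In 5 of the 48 time 0 wells the summed level of the 222 genes was 46.0% to 57.3% of the level of their plate's time 0 pool, and in the other wells it was at least 77.7%. The 5 were the wells set for Pam3Cys and CpG in WT replicate 2 and for LPS, R848 and Zymosan in KO replicate 2, with 84108 to 215189 counts each. In KO replicate 2 the R848 wells kept this low level throughout, at 22886 CPM at time 0, 23088 early, 22501 in the middle hours and 23141 late. Over 7 plate sums with under 150000 counts per well, the members' median was 43.0% to 68.4% of time 0. Not every shallow well was low: the TDB well of WT replicate 2 (170464 counts) stood at 84.1% of its plate's time 0 level and the MDP well of KO replicate 2 (185536 counts) at 77.7%. In the Pam3Cys wells of WT replicate 2, counts per well ran from 84108 to 570465 while the summed level stayed between 16537 and 19529 CPM. The part of these wells in the results was not tested. Counts below are also given without the 7 ligand rows whose time 0 well held under 220000 counts, an alternative chosen after seeing the data.

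Late after LPS, the median member stood at 30.8% of its time 0 level in WT replicate 1 and at 33.1% in WT replicate 2. Among those nearest the limit, Nsmce4a (larger plate ratio 0.4492), Cenpf (0.4467) and Arhgap5 (0.4465) lay just inside. Csgalnact2 (0.4502), D3Ertd254e (0.4517) and Csad (0.4518) lay just outside. Library composition matters to these ratios. Scaled by TMM, which sets the typical gene to no change, late over time 0 values moved up by 0.41 and 0.37 on the log2 scale in the 2 WT plates, the median member stood at 41.0% and 42.9% of time 0, and 83 genes met both thresholds. The same scaling moved the KO plates by 0.27 and 0.31. The tests below use TMM scaling, while levels in CPM and percentages of time 0 do not.

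In KO macrophages, whose values the selection did not use, the same genes were lower late after LPS as well. The median member stood at 41.6% of time 0 in KO replicate 1 and 40.7% in KO replicate 2. In edgeR's quasi-likelihood test of KO LPS and MDP/LPS late wells against KO time 0, 96 of the 222 genes fell at a Benjamini-Hochberg adjusted p under 0.05, against 2.63% of all 10562 genes tested. None rose, while 3.93% of all genes did, and 213 of the 222 fitted changes were below 0. Their median fitted change was -1.06 on the log2 scale, beside -0.18 over all genes. Among the 3152 other genes with at least 40 CPM at time 0 in WT, 94 (2.98%) fell. By level rather than test, 97 members were at 45% of time 0 or less in both KO plates (43.7%), beside 5.1% of the 3374 genes with such a time 0 level. The test's count, 96 in the main fit, was 106 without the ligand rows with a shallow time 0 well and 120 without the shallow sums. It was 61 without WT replicate 1 and 63 without WT replicate 2. When single wells were fitted it was 172, but that fit took wells of 1 plate as independent replicates.

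**Figure D1:**
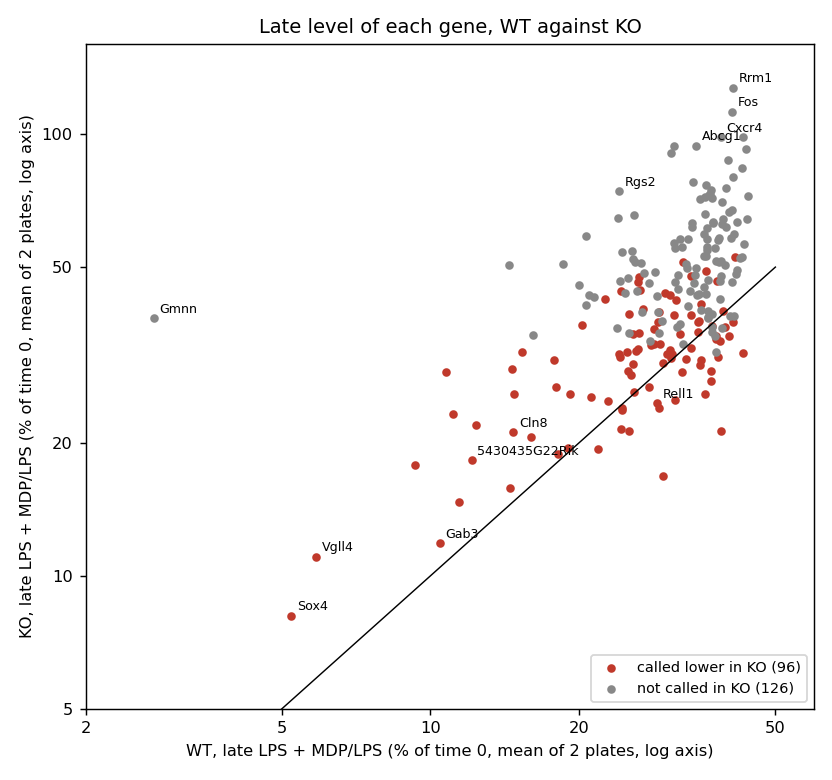
Late level after LPS and MDP/LPS of each of the 222 genes as a percentage of its time 0 level, mean of 2 plates, in WT (x axis, log scale, the values that chose the genes) and KO (y axis, log scale). The line marks equal levels, red points are the 96 genes called lower in KO, and most points lie above the line and below 100%.

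The comparison with time 0 was repeated against late wells of the same KO plates given Pam3Cys, R848 or CpG, so that both sides had spent equal time in culture. Here 125 of the 222 genes were lower after LPS, against 4.6% of all genes, and 0 were higher, against 6.26%. Both comparisons called 90 genes, and they share the late LPS wells. The median difference of the members was -0.92 on the log2 scale, beside -0.12 over all genes. The count was 117 without the ligand rows with a shallow time 0 well, which include the R848 wells of KO replicate 2, and 55 without KO replicate 1. The late LPS and MDP/LPS wells of KO were the shallower side, with a median of 195437 counts per well beside 362496, and the part of depth in this difference was not tested.

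By 3′ counts the most abundant member at time 0 in 3 of the 4 plates was 5430435G22Rik (in KO replicate 2 it was Mbnl1, at 3586 CPM), which RefSeq lists as Rab7b (GRCm38.p6 chr1:131688681-131715443), a small GTPase of late endosomes known to limit Toll-like receptor 4 signalling. Its time 0 level was 3029 and 2398 CPM in the WT plates and 3619 and 3558 CPM in the KO plates. Its late LPS level was 340.5 and 312 CPM in WT and 671 and 642 CPM in KO. All 4 late pools were low, and single late wells lay below every time 0 well of their plate except in KO replicate 2. The change of 5430435G22Rik in KO was -2.21 on the log2 scale (SE 0.29, adjusted p 7.16e-09 by edgeR). Over time, its WT level passed from 96.3% and 109% of time 0 at 0.5 h to 55.8% and 57.0% at 1 h and 10.7% and 12.5% at 4 h.

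Among regulators of transcription, Sox4 (chr13:28948919-28953699), an HMG-box factor of progenitor cells, had one of the lowest late levels. It passed from 529 to 24.1 CPM in WT replicate 1, from 385 to 22.7 CPM in WT replicate 2, from 975.2 to 76.1 CPM in KO replicate 1 and from 946 CPM to 8.46% of that in KO replicate 2. The late pools were therefore under 10% of time 0 in all 4 plates, and the KO change was -3.38 (SE 0.51, adjusted p 7.06e-07). Mef2c, a MADS-box factor, changed in KO by -1.11 and Fli1, an ETS factor, by -0.90 on the log2 scale, with adjusted p 0.00373 and 0.0149. Mef2c lost its call without KO replicate 1 and Fli1 without any 1 of the 4 plates. Cebpa, the myeloid factor, stood at 40.5% and 32.0% of time 0 in WT and at 55.3% and 98.0% in KO, and its KO change was not called. The other members of the list of lineage factors and nuclear receptors were Hhex and Irf2bp2. Of the 82 listed genes that could be tested, 7 fell in KO and 8 rose, with a median of -0.43. Of 21 tested genes of macrophage identity, 2 fell and 2 rose (Cd14 and Msr1). Of 34 immediate early genes, which include the members Fos and Jun, 1 fell and 7 rose, with a median of 0.40. Of 28 genes of the TGF-beta and BMP response, none of them a member, 1 fell and 4 rose.

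**Figure D2:**
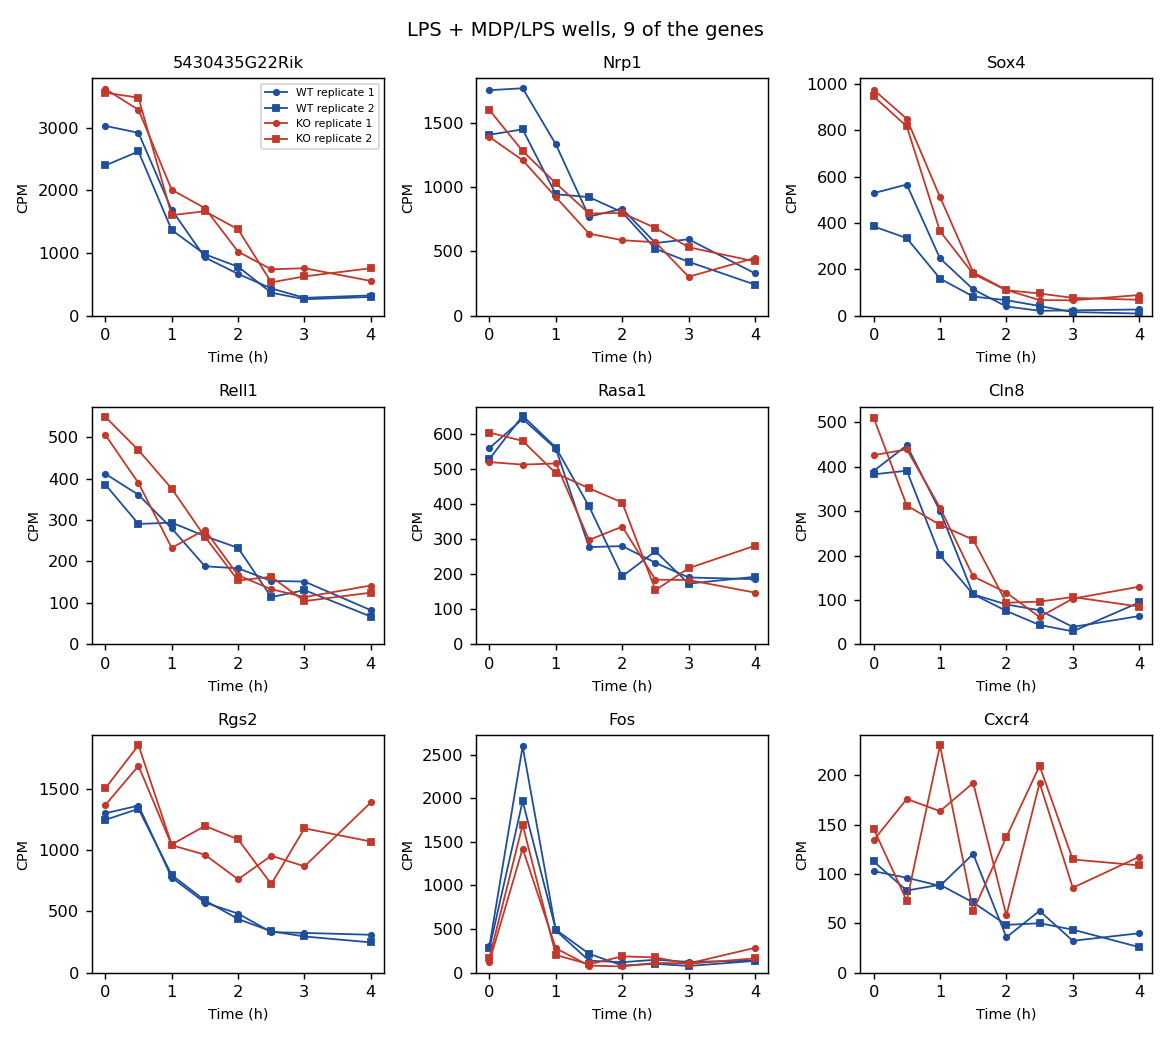
Level of 9 of the genes in CPM (y axes, each starting at 0) against hours after LPS or MDP/LPS (x axes), 2 wells per point after time 0, in WT (blue) and KO (red) plates. In 5430435G22Rik, Nrp1, Sox4, Rell1, Rasa1 and Cln8 all 4 courses come down together, in Rgs2 the KO courses stay above the WT courses, Fos peaks at 0.5 h, and the KO courses of Cxcr4 scatter widely.

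Among surface receptors, Nrp1 (chr8:128358591-128505476), a co-receptor for semaphorins and vascular growth factors, was among the abundant members. It passed from 1751 and 1405 CPM to 492 and 393 CPM in WT and from 1387 and 1596 CPM to 454 and 540.0 CPM in KO. In all 4 plates every late well lay below every time 0 well, and the KO change was -1.35 (SE 0.20, adjusted p 4.02e-08). Ccr2 (chr9:124101918-124109140), the receptor for the monocyte attractant Ccl2, stood late at 29.3% and 28.7% of time 0 in WT and at 36.1% and 38.9% in KO. Its KO change was -1.18 (SE 0.32, adjusted p 0.00708), a call lost without KO replicate 1. Il6ra, the interleukin-6 receptor chain, changed in KO by -1.42 (adjusted p 0.00684), a call lost without KO replicate 2. Tlr4, the LPS receptor itself, had late levels of 12.1 and 16.2 CPM in WT from 58.1 in both plates. In KO it passed from 57.3 and 73.9 CPM to 16.9 and 10.0 CPM (change -2.02, adjusted p 0.00484), a call lost without KO replicate 2.

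The receptors Cxcr4 and Cx3cr1 were not called in KO. Both stood at a higher percentage of time 0 in KO than in WT, as did Ccr2. The median member did so too, at 41.6% and 40.7% in KO beside 30.8% and 33.1% in WT. WT levels were low by selection, and the difference was not tested. Cxcr4 (chr1:128588199-128592299), the receptor for Cxcl12, stood late at 42.1% and 35.3% of time 0 in WT and at 101% and 95.9% in KO. Its KO change was 0.21 (SE 0.31, adjusted p 0.811), and it turned to -0.14 when only 3 and 4 h counted as late. Cx3cr1, the fractalkine receptor, stood at 35.7% and 33.2% in WT and at 46.3% and 53.4% in KO, with an adjusted p of 0.271. Of 11 chemoattractant and nucleotide receptors with at least 40 CPM at time 0, 4 were members (Ccr2, Cx3cr1, Cxcr4 and Gpr65). Of 29 tested in KO, 1 fell and 1 rose, with a median of -0.12. Of 26 cytokine and growth factor receptors tested, 2 fell (Il6ra and Nrp1) and 1 rose, with a median of 0.26. Most listed receptors were thus not called in either direction.

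Regulators of small GTPases and G proteins gave 12 members of 32 listed genes with at least 40 CPM at time 0, beside 222 of all 3374 such genes. The list was chosen with earlier results of these data known, so these shares are a description and were not tested. Rasa1 (chr13:85214699-85289486), which switches off Ras, passed from 559.9 and 529 CPM to 200.2 and 211 CPM in WT and from 519.9 and 604 CPM to 169 and 219 CPM in KO. The KO change was -1.30 (SE 0.21, adjusted p 1.24e-06). Rasgrp3, which switches Ras and Rap on, stood late at 12.1% and 12.7% of time 0 in WT and 16.7% and 27.2% in KO, a KO change of -1.94 (adjusted p 2.46e-05). Of 77 tested genes of the list, 8 fell in KO and 2 rose, with a median of -0.30. Arhgap18 was called at -0.84 (adjusted p 0.0275), a call lost under 6 of 13 alternatives, the removal of any 1 plate among them. Arhgap25, a Rac regulator, had a change of -1.09 that was not called (adjusted p 0.125).

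Rgs2 (chr1:143999338-144004149), which shortens Gq signalling, was an abundant member that did not share this pattern in KO. Its time 0 level was 1299 and 1245 CPM in WT and 1366 and 1502 CPM in KO. Its late LPS level was 320.5 and 293 CPM in WT and 1106 and 1012 CPM in KO. The late wells overlapped the time 0 wells in both KO plates and in WT replicate 2, and the KO change was -0.21 (SE 0.28, adjusted p 0.78). The difference between genotypes in the late LPS change was not tested here, because its WT side chose the genes. In all, 6 members stood at 80% of time 0 or more in both KO plates (Abcg1, Cenpf, Cxcr4, Fos, Rrm1 and Vps39), 2.7% of the members beside 40.7% of the 3374 genes. Fos started lower in KO: its median time 0 well held 305 and 268 CPM in the WT plates and 102 and 170 CPM in the KO plates. Over the 222 members the KO time 0 level was 0.51 to 2.10 of the WT one (median 1.12), so equal percentages can stand for unequal CPM. Abcg1 exports cholesterol, Rrm1 is a subunit of ribonucleotide reductase, Cenpf is a kinetochore protein of dividing cells and Vps39 is a tethering factor of late endosomes.

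Several members act in lysosomes, lipid signalling or nutrient sensing. Cln8 (chr8:14881335-14901720), which carries lysosomal enzymes out of the endoplasmic reticulum, passed from 391 and 383 CPM to 57.9 and 56.0 CPM in WT. In KO it passed from 426 and 511 CPM to 99.3 and 96.7 CPM (change -2.01, SE 0.40, adjusted p 0.000183). Neu1, the lysosomal sialidase, changed in KO by -1.73 (adjusted p 0.00104), a call lost without KO replicate 2. Flcn and Fnip2, partners in the folliculin complex of amino acid sensing, changed by -1.56 and -0.70 (adjusted p 0.0127 and 0.0422), and both lost their calls without the shallow ligand rows and without either WT plate or KO replicate 2. Flcn was lost under 4 of 13 alternatives and Fnip2 under 7, and the Flcn change ran from -4.96 without KO replicate 1 to -1.15 without KO replicate 2. Of 49 tested genes of lysosome and endosome, 6 fell in KO and 1 rose, with a median of -0.24. Tecpr1, a tether between autophagosomes and lysosomes, stood late at 20.2% and 30.2% of time 0 in WT and 21.4% and 21.1% in KO (change -1.998, adjusted p 0.00032). Lpin1, a phosphatidate phosphatase, changed in KO by -2.47 (adjusted p 9.87e-05; -1.82 without KO replicate 1 and -5.84 without KO replicate 2), on 5 late counts in KO replicate 1 (5.74% of time 0, exact interval 1.85% to 13.6%, counting error only). Inpp5d, the lipid phosphatase SHIP1, was called at -1.12 (adjusted p 0.0443), and 7 of 13 alternatives lost that call; the change ran from -1.80 to -0.76 with 1 plate left out. Dgkz, a diacylglycerol kinase, was not called at -1.05 (adjusted p 0.129). Of 44 tested genes of phosphoinositide and lipid signalling, 5 fell and 1 rose, and of 32 of the LXR and sterol list 0 fell and 0 rose.

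Enzymes of chromatin were present with 5 members, Kmt2c, Hdac5, Arid1b, Dnmt3a and Tet3. Hdac5, a histone deacetylase, passed from 66.9 and 61.6 CPM to 7.5 and 16.7 CPM in WT and from 87.6 and 71.3 CPM to 19.7 and 20.8 CPM in KO (change -1.75, adjusted p 0.00365). Dnmt3a, a DNA methyltransferase, passed from 754 and 666 CPM to 237 and 224 CPM in WT and from 751 and 818 CPM to 408 and 397 CPM in KO (change -0.73, adjusted p 0.0344), a call lost without WT replicate 1, WT replicate 2 or KO replicate 2. It overlaps Gm10485, another member, on the opposite strand. Whether counting used the strand is not given in the sources used here, so reads of this pair cannot be told apart. Kmt2c, a histone methyltransferase, Arid1b, a subunit of a remodelling complex, and Tet3, which oxidises methylcytosine, had KO changes of -0.70, -0.60 and -0.60 that were not called. Of 78 tested genes of the list 5 fell and 2 rose, with a median of -0.04.

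The group of growth arrest and FOXO targets held 4 members, Ccnd1, Sesn1, Txnip and Hbp1. Sesn1 (chr10:41810574-41908436), a stress-induced inhibitor of growth signalling, passed from 109 and 102 CPM to 15.4 and 15.3 CPM in WT. In KO it passed from 167 and 171 CPM to 23.6% and 35.1% of that (change -1.67, SE 0.33, adjusted p 0.000109). Hbp1, a repressor of the cell cycle, Txnip, which binds thioredoxin and limits glucose uptake, and Ccnd1, the cyclin of early G1, had KO changes of -0.79, -0.56 and -0.27 that were not called. Of 44 tested genes of this list, 2 fell in KO and 5 rose, with a median of -0.52. The forkhead letters TGTTTAC, searched on both strands with no other motif overlapping them in the search, were in the promoters of 4 members, Sesn1, Txnip, Hbp1 and Rasa1. Those of Sesn1, Txnip and Rasa1 are shown because they place the letters, in 2 members of the FOXO list and in Rasa1. The sequences are from RefSeq (GRCm38.p6), 5′ to 3′ on the gene's strand, with the motif or its reverse complement GTAAACA in capitals. The stretches are chr10:41810324-41810602 on the plus strand, chr3:96557707-96557956 on the plus strand and chr13:85289487-85289736 on the minus strand.
Sesn1: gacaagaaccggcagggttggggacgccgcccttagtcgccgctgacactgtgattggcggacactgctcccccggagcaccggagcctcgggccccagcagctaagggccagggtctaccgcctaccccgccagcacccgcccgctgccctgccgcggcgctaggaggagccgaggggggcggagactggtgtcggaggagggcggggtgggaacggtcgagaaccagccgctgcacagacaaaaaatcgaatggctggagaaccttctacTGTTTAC
Txnip: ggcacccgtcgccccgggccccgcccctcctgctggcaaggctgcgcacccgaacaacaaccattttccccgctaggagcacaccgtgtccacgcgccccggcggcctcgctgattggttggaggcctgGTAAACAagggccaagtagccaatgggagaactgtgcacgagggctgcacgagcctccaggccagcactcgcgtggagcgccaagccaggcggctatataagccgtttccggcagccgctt
Rasa1: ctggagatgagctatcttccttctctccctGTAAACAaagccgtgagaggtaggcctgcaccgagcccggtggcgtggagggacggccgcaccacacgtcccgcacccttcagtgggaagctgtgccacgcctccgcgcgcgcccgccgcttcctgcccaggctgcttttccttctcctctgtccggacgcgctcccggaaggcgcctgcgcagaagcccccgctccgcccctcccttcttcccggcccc
The letters lay 22 bases downstream of the start in Sesn1 and 121 and 220 bases upstream in Txnip and Rasa1. In Hbp1 they lay 149 bases upstream of the start that the RefSeq promoter table uses, which is inside the full span of the gene (chr12:31926452-31950530). A match is a description of letters and not a site.

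Over all members, promoters of 300 bases were at hand for 181 of 222. The forkhead letters were in 2.21% of them, beside 1.98% of 2573 genes with at least 40 CPM at time 0 and 3.55% of all 27025 promoters. The ETS-type letters GGAAGTG were in 9.39% of members and 16.2% of the genes with that level. The CCAAT letters were in 43.6% and 37.1%, the GC box GGGCGG in 65.7% and 67.4%, the E-box CACGTG in 21 of 181 and 284 of 2573 and the AP-1 letters TGACTCA in 4.97% and 3.73%. The cyclic AMP element TGACGTCA was in 1.66% and 3.69% and the TATAAA letters in 8.29% and 7.85%. The ISRE-type motif was in 2.76% and 4.39%, and both NF-kB motifs searched were in 0 member promoters and in 0.194% and 0.272% of the genes with that level. The 2573 genes include the members. Median GC was 64.0% in members and 61.7% in the expressed genes.

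Among the remaining members with the strongest KO calls, Rell1 (chr5:63889337-63969020), a relative of the receptor Relt, passed from 412 and 386 CPM to 127 and 103 CPM in WT and from 506 and 550 CPM to 132 and 127 CPM in KO. Its KO change was -1.81 (SE 0.22, adjusted p 9.7e-11). Gab3, an adaptor of the macrophage growth factor receptor, was at 11.1% and 9.8% of time 0 in WT and 11.6% and 12.1% in KO (change -2.88, adjusted p 3.78e-07). Arl11, an Arf-like GTPase, changed by -2.16, Prorsd1 by -2.48 and Fam63b, a deubiquitinase, by -1.84 in KO, with adjusted p of 3.93e-07, 2.59e-07 and 4.38e-06. B4galt6, which makes lactosylceramide, changed by -1.17 (adjusted p 4.04e-05) and Ptpn7, a phosphatase of MAP kinases, by -1.28 (adjusted p 2.86e-05). Nceh1, a cholesterol ester hydrolase, changed by -1.12 (adjusted p 7.62e-05). The splicing regulator Mbnl1 and the protease subunit Psen2, both abundant at time 0, had changes of -1.35 and -0.87 that were not called (adjusted p 0.071 and 0.136). The RNA-binding proteins Samd4 and Nanos1 changed by -2.31 and -2.02 (adjusted p 0.0005 and 4.97e-05). The lowest mean WT percentage of the 2 plates was that of Gmnn, an inhibitor of DNA replication licensing, at 3.68% and 1.82% of time 0 on 4 and 2 late counts (exact intervals 0.99% to 9.54% and 0.22% to 6.69%). In KO it stood at 35.7% and 40.8% and was not called. Vgll4, a partner of TEAD factors, stood at 3.16% on 4 late counts in WT replicate 1 (0.86% to 8.2%), and its span lies 16 bases from that of Atg7, another member, on the opposite strand. Some genes were named for a small p-value or a low change in the KO LPS test against time 0. Counts of calls among the named genes were thus partly fixed by that choice. Over all 222 members, 96 (43.2%) were called lower in that test. Of 71 genes named by the rule, 41 were called lower in KO, and 26 of them were called under each of 13 alternatives.

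The fall was gradual in both genotypes. The median member in WT LPS and MDP/LPS wells stood at 93.8% and 94.1% of time 0 at 0.5 h, 74.8% and 74.1% at 1 h, 47.9% and 48.1% at 2 h and 25.2% and 25.6% at 4 h. In KO it stood at 87.3% and 88.3% at 0.5 h, 69.8% and 64.1% at 1 h, 50.5% and 54.7% at 2 h and 36.7% and 33.8% at 4 h. The KO medians were thus the lower ones up to 1 h and the higher ones from 2 h. In KO replicate 2 the time 0 well set for LPS was already at 57.3% of its plate's level. The early median there was 62.7% after LPS and 87.6% after MDP/LPS, beside 78.8% and 79.1% in KO replicate 1. The part of the low LPS wells in the early KO medians was not tested. The WT values at time 0, 2.5, 3 and 4 h chose the genes, so WT levels at those hours were low by selection. The difference between genotypes at those hours was not tested. Pam3Cys, R848 and CpG wells gave 44.0% and 43.5% at 4 h in WT and 102% and 80.7% in KO. Counting when a gene first reached 50% of time 0 in both plates and stayed there, WT gave 1 gene from 0.5 h, 6 from 1 h, 20 from 1.5 h, 35 from 2 h, 65 from 2.5 h, 58 from 3 h and 20 at 4 h, with 17 never. KO gave 0, 1, 16, 10, 23, 32 and 48 genes, with 92 never. The WT counts rest in part on the wells that chose the genes, so the 2 sets of counts are not an even comparison. The KO pools were also the shallower ones, with 570700 and 377048 counts at 4 h beside 851204 and 732723 in WT. The earliest in WT was Hhex, a homeobox factor, followed by Arl16, Dstyk, Nudt16, Prorsd1, Sesn1 and Sox4. The earliest in KO was Tecpr1.

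**Figure D3:**
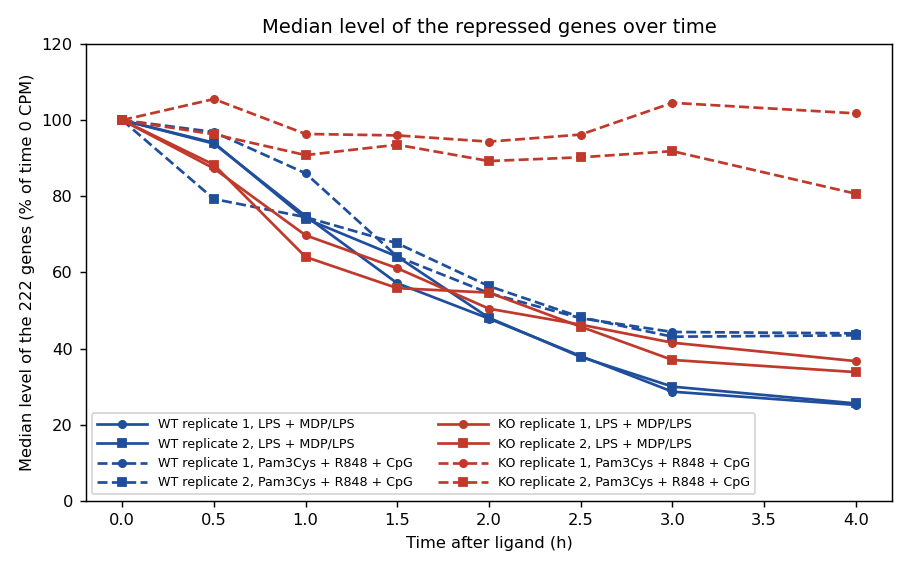
Median level of the 222 genes as a percentage of their time 0 level (y axis) against hours after the ligand (x axis), 1 line per plate. The WT time 0 values and the WT LPS and MDP/LPS values from 2.5 h chose the genes. LPS with MDP/LPS wells (solid) come down in both genotypes, to 25.2% and 25.6% at 4 h in WT and 36.7% and 33.8% in KO, while Pam3Cys, R848 and CpG wells (dashed) come down in WT and stay between 80.7% and 106% in KO.

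The middle wells (1.5 and 2 h) were tested against the early wells (0.5 and 1 h) of LPS and MDP/LPS, a comparison added after the data were seen that uses no time 0 or late well. In WT, 35 members fell, against 0.776% of all genes, with a median of -0.55. In KO, 17 fell, against 1.23%, with a median of -0.43. No member rose in either genotype, where 1.58% of all genes did in WT and 1.27% in KO. A test of the difference between genotypes called 0 higher and 0 lower, where 0.0% of all genes were higher and 0.0189% lower. At an unadjusted p under 0.05 it gave 11 higher and 4 lower, and DESeq2 gave 0. Without WT replicate 1 the WT count was 2 and without WT replicate 2 it was 3. Fos and Jun, the immediate early members, gave the smallest p-values in both genotypes. Fos had peaked at 844% and 705% of time 0 at 0.5 h in WT and at 1124% and 982% in KO, so that its fall started from the peak.

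The selection did not use the other 10 ligands. The median member stood at 38.1% and 38.2% of time 0 after Zymosan, 36.4% and 43.6% after Poly(I:C) and 52.0% and 53.1% after SeV. It stood at 45.6% and 48.8% after Pam3Cys, 44.7% and 43.4% after R848, 40.3% and 45.5% after CpG and 60.4% and 61.0% after FLA. MDP left 74.99% and 89.3%, TDB 73.0% and 82.8% and HT-DNA 89.2% and 107%. These WT levels share the time 0 wells with the selection and are not tested. At 50% of time 0 or less in both WT plates were 139 members after Zymosan (62.6% of members, beside 6.31% of the 3374 genes). The 3374 genes include the members. The counts were 123 after Poly(I:C) (55.4% beside 6.67%) and 58 after SeV (26.1% beside 3.17%). They were 93 after Pam3Cys (41.9% beside 3.82%), 103 after R848 (46.4% beside 4.39%) and 95 after CpG (42.8% beside 3.97%). There were 40 after FLA (18.0% beside 1.99%), 5 after MDP (2.25% beside 0.18%), 9 after TDB (4.05% beside 0.44%) and 0 after HT-DNA (0.0% beside 0.03%).

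In KO, levels near or below 50% of time 0 in both plates followed Zymosan, Poly(I:C) and SeV besides LPS. The median member stood at 46.1% and 40.9% of time 0 after Zymosan, 36.5% and 37.1% after Poly(I:C) and 49.8% and 51.8% after SeV. After Pam3Cys it stood at 101% and 96.5%, after CpG at 101% and 91.2% and after R848 at 103% in replicate 1 and 51.0% in replicate 2, the plate whose R848 wells were already low at time 0. After MDP it stood at 79.1% and 76.8%, after TDB at 78.0% and 79.2%, after FLA at 68.4% and 95.9% and after HT-DNA at 55.5% and 84.2%. The low FLA and HT-DNA values are from KO replicate 1, where those late wells were among the shallow sums. In both plates of both genotypes, 44 members were at 50% or less after each of LPS, MDP/LPS, Zymosan and Poly(I:C). Of these, 20 were so after SeV too, among them 5430435G22Rik, Ccr2, Cln8, Gab3, Il6ra, Lpin1, Rasgrp3 and Sox4.

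**Figure D4:**
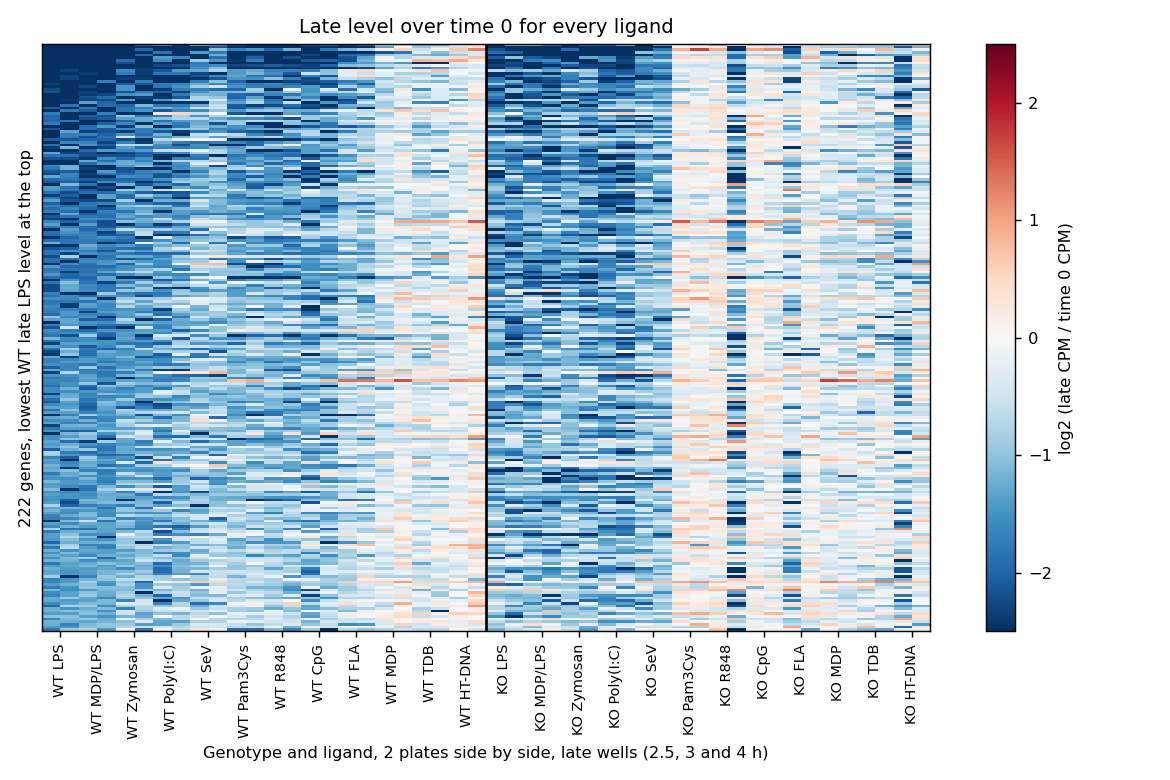
Late level over time 0 level (colour, log2 of the CPM ratio) of the 222 genes (rows, lowest WT late LPS level at the top) for each genotype and ligand (columns, 2 plates side by side). Blue marks levels below time 0, and in KO the Pam3Cys and CpG columns are pale while the LPS, MDP/LPS, Zymosan, Poly(I:C) and SeV columns are blue; the single blue columns under KO R848, FLA and HT-DNA are shallow sums.

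In the tests of KO late wells against KO time 0, 62 members fell after Zymosan, against 1.09% of all genes, with a median of -0.95. After Poly(I:C) 111 fell, against 3.1%, with a median of -1.27, and after SeV 22 fell, against 0.426%, with a median of -0.70. None rose in these 3 comparisons, where 3.34%, 4.86% and 3.31% of all genes did. The strongest call after Zymosan and after Poly(I:C) was Rell1 (-2.07 and -2.14, adjusted p 2.5e-09 and 3.16e-10), and after SeV it was Sesn1 (-2.06, adjusted p 9.92e-05). Sox4 changed by -4.01 after Poly(I:C) and by -3.10 after SeV (adjusted p 5.28e-06 and 0.00041). Without the shallow ligand rows the counts were 43, 130 and 45. The Zymosan count was 30, 30 and 29 without WT replicate 1, WT replicate 2 and KO replicate 2, and the Poly(I:C) count was 70 and 67 without WT replicate 1 and 2. The SeV count was 9, 10, 13 and 13 with 1 plate left out at a time. The Zymosan time 0 well of KO replicate 2 was itself low: late Zymosan wells held 80.7% of their own row's time 0 level there and 41.2% of the plate's, but 46.1% and 44.7% in KO replicate 1. For LPS the same 2 values were 70.1% and 40.2% in KO replicate 2 and 42.5% and 40.8% in KO replicate 1.

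After the other ligands the KO tests called few members. After Pam3Cys, R848 and CpG 0 fell, against 0.0% of all genes in each, and DESeq2 called 0 too. At an unadjusted p under 0.05, 1, 17 and 5 were lower. FLA gave 0 (0.00947% of all genes; 13 unadjusted; 0 by DESeq2), MDP 0 (0.00947%; 16 unadjusted; 4 lower by DESeq2) and HT-DNA 0 (0.0%; 24 unadjusted; 0 by DESeq2). TDB gave 1, Sesn1 (-1.58, adjusted p 0.0259), against 0.0284%. Some of these counts rested on which plate was kept: without KO replicate 1 R848 gave 34, and without KO replicate 2 FLA gave 9 and HT-DNA 23. None of the members rose after any of these ligands, where 0.473% of all genes did after TDB, 0.189% after MDP, 0.0568% after HT-DNA, 0.0189% after R848 and 0.00947% after each of Pam3Cys, CpG and FLA. In each of the larger counts the plate kept is the one with the shallow sum.

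**Figure D5:**
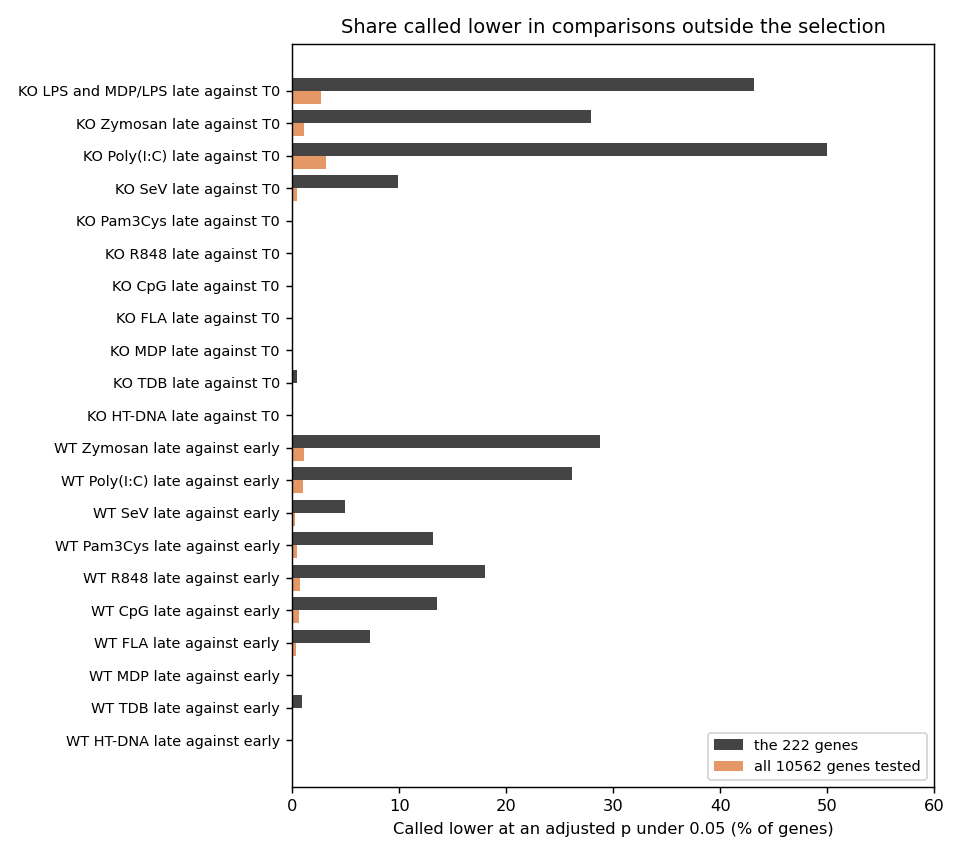
Share of genes called lower at an edgeR adjusted p under 0.05 (x axis, percent) in each comparison that the selection did not use (y axis), for the 222 genes (dark bars) and all 10562 genes tested (orange bars). The share of the members is 43.2% after LPS, 50.0% after Poly(I:C) and 27.9% after Zymosan in KO, and 0.0% after Pam3Cys, R848 and CpG.

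In WT, tests on wells outside the selection compared late with early wells of each ligand. After Zymosan 64 members fell, against 1.06% of all genes, after Poly(I:C) 58 (0.994%) and after SeV 11 (0.237%). After Pam3Cys 29 fell (0.464%), after R848 40 (0.72%), after CpG 30 (0.587%) and after FLA 16 (0.312%). TDB gave 2, Lpin1 and Rell1 (0.0473%). MDP gave 0 (0.0%; 18 lower at an unadjusted p under 0.05; 0 by DESeq2) and HT-DNA 0 (0.0%; 5 lower and 12 higher unadjusted; 0 by DESeq2). Apart from Gpr65 after SeV no member rose, where 2.66% of all genes did after Zymosan, 3.72% after Poly(I:C), 0.559% after Pam3Cys, 0.833% after R848, 0.71% after CpG, 0.133% after FLA and 0.114% after TDB. These counts rest on both WT plates. With either WT plate left out, Zymosan gave 7 or 5, Poly(I:C) 7 or 2, R848 1 in both cases, Pam3Cys 0 or 2, CpG 0 or 1, and SeV, FLA and TDB gave 0. Without the 7 shallow sums, 1 of which is the early Pam3Cys sum of WT replicate 2, Pam3Cys gave 57, R848 66, CpG 52, FLA 30, SeV 19 and TDB 4.

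Single genes differed by ligand. Gpr65, a proton-sensing receptor, was the 1 member that rose, late against early after SeV in WT (1.26, SE 0.33, adjusted p 0.00859), against 2.6% of all genes. With either WT plate left out, 0 members were called higher in that comparison. Its late level after SeV was 123% and 179% of time 0 in WT and 140% and 190% in KO, while after LPS the pooled WT level was 25.8% and 42.2%. Rgs2 after Poly(I:C) stood at 61.6% and 90.3% of time 0 in WT and after SeV at 98.0% and 112%, but after Pam3Cys at 13.9% and 15.2%. In KO it stood at 82.2% and 76.4% after Zymosan. Cx3cr1 stood at 163% and 192% of time 0 after Pam3Cys and at 259% and 251% after FLA in WT, well above its level of 30.2% and 32.7% after Poly(I:C). Ptpn7 stood at 92.4% and 78.1% after Pam3Cys in WT, above its 33.6% and 49.2% after SeV. Cxcr4 in KO, near its time 0 level after LPS, stood at 27.0% and 27.0% after Poly(I:C).

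For Pam3Cys, R848 and CpG, ligands of Myd88-dependent receptors, the late against early change was compared between genotypes. FLA was not compared in this way. After Pam3Cys 4 members had a higher change in KO (Fos, Jun, Jmjd1c and Rgs2), against 0.0379% of all genes, after R848 10, against 0.142%, and after CpG 3 (Fos, Gpr65 and Rasa1), against 0.0473%. None had a lower change, where 0.104% of all genes did after R848 and 0.0947% after CpG. After Pam3Cys, 5 of the 3152 other genes with at least 40 CPM at time 0 in WT (0.159%) had a lower change. The median difference of the members was 0.78, 1.00 and 0.93, beside -0.02, 0.07 and 0.04 over all genes. At an unadjusted p under 0.05, 61, 78 and 66 members were higher. Rgs2 after R848 shows the pattern: from 1299 CPM at time 0 it passed through 1088 early to 219 late in WT replicate 1, and from 1245 through 1113 to 179 in WT replicate 2. In KO replicate 1 it passed from 1366 through 1767 to 1727 CPM, and in KO replicate 2 from 1502 through 579 to 543 CPM, in the wells that stood low throughout. The difference was 2.35 (SE 0.47, adjusted p 0.0056). Rasa1 after CpG passed from 628 early to 200.4 CPM late and from 601 to 216 CPM in WT, and from 522 to 576 and from 661 to 681 CPM in KO (difference 1.60, SE 0.36, adjusted p 0.0197). With 1 WT plate left out, 0 to 1 members were called in each of these 3 tests, and without KO replicate 1 Pam3Cys gave 16, R848 31 and CpG 6. Without the shallow ligand rows they gave 10, 6 and 9.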

How the data were processed

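The authors deposited 1 table of counts, whole numbers per gene for each of 384 wells. Reads were aligned with BWA to mm10, per the submitters' processing notes; its version, the annotation, the use of strand and the handling of molecular identifiers were not given in those notes or the labels. Plates held 29737092 to 37323548 counts, and no 2 wells were identical. Counts were summed per plate over the 12 time 0 wells and, for each ligand, over the wells lysed at 0.5 and 1 h (early), at 1.5 and 2 h (middle) and at 2.5, 3 and 4 h (late), giving 148 sums. All sums entered 1 fit of edgeR 4.0.16 in R 4.3.3 (robust quasi-likelihood, TMM scaling, filterByExpr with a minimum count of 10), so both genotypes shared the estimate of spread. The Benjamini-Hochberg threshold was 0.05 within each comparison over 10562 genes. DESeq2 1.42.0 was an alternative, among the 13 tried (see the closing section). Intervals on counts are exact at 95% and cover counting error only.

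On simulated data (9372 genes), LPS against time 0 in KO recovered 5.75% of genes changed 2-fold and 25.6% of those changed 4-fold. WT Pam3Cys late against early recovered 0% and 6.67%, and its difference between genotypes 0% and 2.22%, so genes not called may still differ. The labels give no shared source for a replicate number across genotypes, and pairing across genotypes was not tested; a check within each genotype is in the closing section. The members, gene lists and tests were chosen with earlier results of these data known. Named genes are the most abundant members, those with the lowest WT ratios, the smallest p-values in each comparison, the extremes of the KO change, those nearest the thresholds and up to 5 per gene list; any other gene was named after its values were seen. Sequences and positions are from RefSeq, GRCm38.p6, and all 222 members matched, 15 by synonym.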

Additional observations from a re-analysis of the deposited data

Results flagged for a closer look

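In a test of the difference itself, 17 late against early changes were higher in KO than in WT (edgeR, adjusted p under 0.05; KO minus WT, log2). After Pam3Cys the differences were 3.31 for Fos, 2.10 for Jmjd1c, 2.21 for Jun and 2.07 for Rgs2. After R848 they were 5.01 for Bmp2, 2.83 for Fos, 2.28 for Jmjd1c, 2.70 for Jun, 2.06 for Mef2c, 2.63 for Rab3il1, 1.52 for Rasa1, 2.49 for Rasgrp3, 2.35 for Rgs2 and 1.80 for Snx30. After CpG they were 2.70 for Fos, 2.08 for Gpr65 and 1.60 for Rasa1. Bmp2 was at 0 CPM late after R848 in WT replicate 2 and at 0 CPM both early and late in KO replicate 2, so its fitted difference depends on the prior count and has no fixed size. The difference for Fos sits on an early rise in WT: after Pam3Cys it passed from 307 CPM at time 0 through 1712 early to 186 late in WT replicate 1, and from 127 through 98.5 to 245 CPM in KO replicate 1. The R848 sums of KO replicate 2 and the early Pam3Cys sum of WT replicate 2 were shallow, and the part of depth in these differences was not tested.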

How the results depend on the processing

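Counts are members called, lower for changes and higher for differences between genotypes. With 1 plate left out at a time, the KO counts against time 0 ran from 61 to 83 for LPS, 29 to 46 for Zymosan, 67 to 82 for Poly(I:C), 9 to 13 for SeV, 0 to 34 for R848, 0 to 9 for FLA, 0 to 23 for HT-DNA and 0 to 1 for MDP and TDB, and from 55 to 108 for LPS against late wells. The WT counts ran from 5 to 104 for Zymosan, 2 to 92 for Poly(I:C), 0 to 29 for SeV, 0 to 56 for Pam3Cys, 1 to 73 for R848, 0 to 70 for CpG, 0 to 31 for FLA, 0 to 4 for TDB and 0 to 1 for HT-DNA. The differences ran from 0 to 16 for Pam3Cys, 0 to 31 for R848 and 0 to 6 for CpG, and the middle against early counts from 2 to 63 in WT, 10 to 20 in KO and 0 to 1 for their difference. A lone plate was assumed to vary like the other groups. A replicate block (plate within genotype) gave 99 for LPS in KO and 2 for TDB, and changed no other count by over 1.5 times; same-numbered sums within a plate deviated together only weakly (median r 0.014 in WT and 0.02 in KO, 666 pairs each), and the labels give no shared source for a number across genotypes. Single wells in place of sums gave 172 for LPS, 119 for Zymosan, 64 for SeV, 2 for R848, 10 for FLA, 8 for MDP, 15 for TDB and 13 for HT-DNA in KO and 6 for the CpG difference. That fit took wells of 1 plate as independent replicates. DESeq2 gave 34 for SeV, 4 for MDP and 4 for TDB in KO, 48, 62, 50 and 29 for Pam3Cys, R848, CpG and FLA in WT, and differences of 10, 22 and 14 for Pam3Cys, R848 and CpG. No filter gave 1 for Pam3Cys, 2 for R848, 1 for MDP and 6 for HT-DNA in KO and differences of 8 for Pam3Cys and 5 for CpG. Taking 3 and 4 h only as late gave 1 for MDP and 5 for TDB in KO, 18 for SeV and 1 for TDB in WT and 6 for the CpG difference. Without wells under 100000 counts, TDB in WT gave 1. Of the alternatives chosen after seeing the data, leaving out sums under 150000 counts per well gave 41 for SeV, 5 for MDP and 3 for TDB in KO, 19, 57, 66, 52, 30, 4 and 1 for SeV, Pam3Cys, R848, CpG, FLA, TDB and HT-DNA in WT, 56 for the WT middle wells and differences of 21 for Pam3Cys and 12 for CpG. Leaving out ligand rows with a time 0 well under 220000 counts gave 45 for SeV, 1 for MDP, 5 for TDB and 7 for HT-DNA in KO, 20, 28, 0 and 1 for SeV, FLA, TDB and HT-DNA in WT and differences of 10, 6 and 9 for Pam3Cys, R848 and CpG. Membership was 147 genes at a ratio of 0.40, 110 at 80 CPM and 83 with TMM scaling. Uncalled KO LPS changes that turned sign (log2) were Arhgap5 to -0.03 with no filter, -0.066 with wells, -0.069 at 3 and 4 h, -0.038 without shallow rows and -0.457 to 0.361 with 1 plate left out; Cenpf to -0.032 with wells, -0.297 at 3 and 4 h, -0.225 without shallow rows and -0.069 to 0.123 with 1 plate left out; Vps39 to -0.007 with wells and -0.051 at 3 and 4 h; Cxcr4 to -0.139 at 3 and 4 h; Nsmce4a to 0.197 without shallow rows and -0.517 to 0.066 with 1 plate left out. With 1 plate left out, Arl4c ran from -0.262 to 0.478, Cebpa from -0.743 to 0.23, Fos from -0.026 to 0.709 and Gpr65 from -0.376 to 0.069, each turning without KO replicate 1. For these changes the cause was not tested. With 99172 to 138686 counts per well in the shallowest sums, genes near 40 CPM rest on few counts.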
